A study of Homo sapiens with 8 samples.

Results

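The 37 genes described here encode subunits of the human RNA polymerases I, II and III (Pol I, Pol II and Pol III), together with a few factors and gene copies named after them. They were chosen by gene symbol, as every row whose symbol begins with POLR1, POLR2 or POLR3 followed by a letter, plus TWISTNB, CD3EAP, ZNRD1, CRCP, RRN3 and UBTF, and they are 37 of the 14526 genes in the authors' expression table. Of these, 31 are polymerase subunits: 6 belong to Pol I alone, 2 to Pol I and Pol III, 5 to all 3 enzymes, 7 to Pol II alone and 11 to Pol III alone. The other 6 are not subunits in this grouping: the Pol I factors RRN3 and UBTF, the Pol II-bound protein POLR2M, and POLR2J2, POLR2J3 and POLR2J4, which are copies of the subunit gene POLR2J.

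RNA was sequenced from cells labelled HepG2, an established line from a human liver carcinoma, to ask how gene expression responds to sodium benzoate (SB), a food preservative. The control group holds 4 samples labelled control, for which no vehicle is given, and the SB-treated group holds 4 samples kept with 10 mM SB for 24 h before harvest. Both groups are the same line grown in DMEM with fetal bovine serum, so 1 line and 1 dose and time stand for the response. Values are RPKM, reads divided by the length of the gene and the scaled size of the library, which the authors deposited for each library. Values of single libraries are listed below in the order of replicates 1 to 4.

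The recovered reads on the 14526 genes ranged from 36964791 to 44846247 per library. Control replicate 1 stood apart from the other controls: the chi-square of its reads against each of them was between 33.4 and 38.4 per degree of freedom, against 1.52 to 3.80 for every other pair of libraries of the same group. It was the control farthest from the control median for 29 of the 37 genes, the highest control for 13 and the lowest for 19. Its log2 difference from the other controls ran from -0.50 to 0.55 over the 37 genes and had a Pearson correlation of -0.78 with the GC content of the transcript, a description across genes of 1 library. In the test used below, calls and counts of the 37 genes and gene lists that change without this library are given both ways. The hepatocyte markers go against the label: 16 of 20, ALB, AFP and APOA1 among them, have no row in the table, for which the authors asked for more than 1 CPM in 2 or more samples. The cells are called HepG2 below as labelled. The 4 with a row, TF and CPS1 among them, summed to between 7.92 and 8.61 RPKM in the controls and between 13.3 and 13.6 RPKM in SB-treated cells, and all 4 were higher by the test used below. Leukocyte markers, of which 3 of 8 have a row, summed to 3.28 to 3.77 and 3.35 to 4.14 RPKM, and fibroblast markers, 4 of 8, to 6.63 to 8.97 and 6.62 to 6.98 RPKM, with CD68 and LUM higher, COL3A1 lower and the other 4 not past the test (COL1A1 was also lower without control replicate 1). The part of these markers in the results below was not tested.

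**Figure D1:**
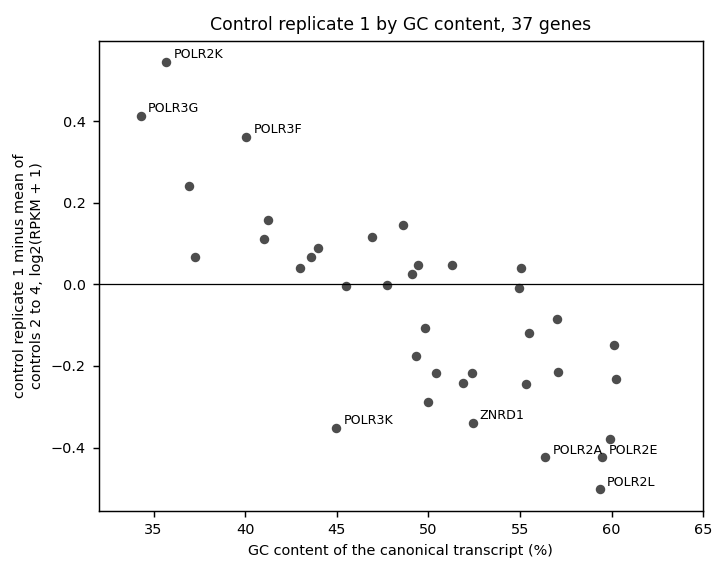
Each point is 1 of the 37 genes, with the GC content of its canonical transcript (%) on the horizontal axis and, on the vertical axis, control replicate 1 minus the mean of control replicates 2 to 4 on the log2(RPKM + 1) scale. Genes with AT-rich transcripts such as POLR2K (0.55) lie above 0 and genes with GC-rich transcripts such as POLR2L (-0.50) lie below it.

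Each of the enzymes is built around a catalytic pair, the largest and the second-largest subunit, with an assembly platform, a stalk and a set of small subunits that the enzymes have in common. Pol I makes the precursor of the large ribosomal RNAs in the nucleolus, Pol II makes messenger RNA and many noncoding RNAs, and Pol III makes transfer RNAs and other short RNAs. Pol I and Pol III output follows cell growth, and both are known targets of growth-regulating pathways. The measurements here are of the mRNAs of the subunits, not of polymerase activity or protein.

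To show the sequence context of members of each enzyme, strong falls (POLR3K, TWISTNB and POLR2A) beside smaller ones and beside POLR2D, which did not pass the test, the 100 bases before the annotated start are given for 6 genes from the RefSeq promoter table (GRCh38.p14, 26 of the 37 genes matched), with matches to the searched motifs in capitals. They are CD3EAP (chr19:45406544-45406643, plus strand), TWISTNB (chr7:19709038-19709137, minus strand), POLR2A (chr17:7484266-7484365, plus strand), POLR2D (chr2:127858156-127858255, minus strand), POLR3B (chr12:106357648-106357747, plus strand) and POLR3K (chr16:53609-53708, minus strand), each upstream of its gene and outside annotated exons.
CD3EAP: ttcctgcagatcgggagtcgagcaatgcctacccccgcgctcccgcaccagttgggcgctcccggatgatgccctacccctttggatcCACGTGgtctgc
TWISTNB: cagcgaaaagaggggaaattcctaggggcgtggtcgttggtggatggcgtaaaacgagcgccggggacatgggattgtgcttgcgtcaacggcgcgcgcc
POLR2A: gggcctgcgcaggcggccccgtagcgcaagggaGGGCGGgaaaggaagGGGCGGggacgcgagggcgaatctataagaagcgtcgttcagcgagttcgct
POLR2D: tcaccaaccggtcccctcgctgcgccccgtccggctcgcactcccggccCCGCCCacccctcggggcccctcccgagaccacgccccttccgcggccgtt
POLR3B: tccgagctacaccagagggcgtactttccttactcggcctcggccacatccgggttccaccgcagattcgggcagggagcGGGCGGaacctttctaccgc
POLR3K: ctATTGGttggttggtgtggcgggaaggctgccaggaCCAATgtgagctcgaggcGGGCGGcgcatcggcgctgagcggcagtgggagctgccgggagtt

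The capitals mark an E-box (CACGTG) in CD3EAP, GC boxes (GGGCGG or its reverse complement) in POLR2A, POLR2D, POLR3B and POLR3K, and CCAAT boxes (CCAAT or its reverse complement) in POLR3K. No searched motif was found in the TWISTNB window, and POLR2A, which fell, and POLR2D, which did not pass the test, both carry a GC box. Both strands were searched over the 300-base windows of all matched genes, which run from 250 bases before to 50 after the start. The ETS core CCGGAAG was present in 10 of 26 members (38.5%) and in 18.4% of 11337 genes. The GC box was present in 17 of 26 (65.4%) against 69.9% of all, the CCAAT box in 6 (23.1%) against 36.5%, and the E-box in 4 (15.4%) against 10.1%. The TATA box (TATAAA) and the NRF1 palindrome were each present in 1 member (3.85%), against 5.51% and 2.32% of all genes. The median GC content of these windows was 60.7% for the members and 65.3% for all genes. These are descriptions of letters in a window, not of binding.

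In control cells the 37 genes spanned from 0.182 RPKM for POLR2M to 101 RPKM for POLR3K, with a median of 28.7 RPKM against 8.30 RPKM over all genes. After POLR3K, the cleavage and termination subunit of Pol III, came POLR2G, a Pol II stalk subunit, at 92.9 ± 3.51 RPKM (SD, n = 4), and POLR2A, the largest Pol II subunit, at 65.1 ± 8.99 RPKM. Over all 4 controls, POLR3K and POLR2G did not differ in level beyond the spread of POLR3K. Nor did the run from POLR2L at 44.7 ± 7.40 RPKM through POLR1D, POLR2D and POLR1E to POLR2K at 39.9 ± 8.45 RPKM. This rests on control replicate 1. In controls 2 to 4, POLR3K was at 106, 108 and 107 RPKM and POLR2G at 94.3, 95.8 and 93.8 RPKM. POLR2L was at 48.3, 50.1 and 46.6 RPKM there, and POLR2K at 35.9, 34.5 and 36.5 RPKM. Only 3 genes were below 1 RPKM in control cells: POLR2M, POLR2J2 and POLR2J4. Levels also reflect the gene length the authors used and do not give the ratio of proteins in an enzyme.

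**Figure D2:**
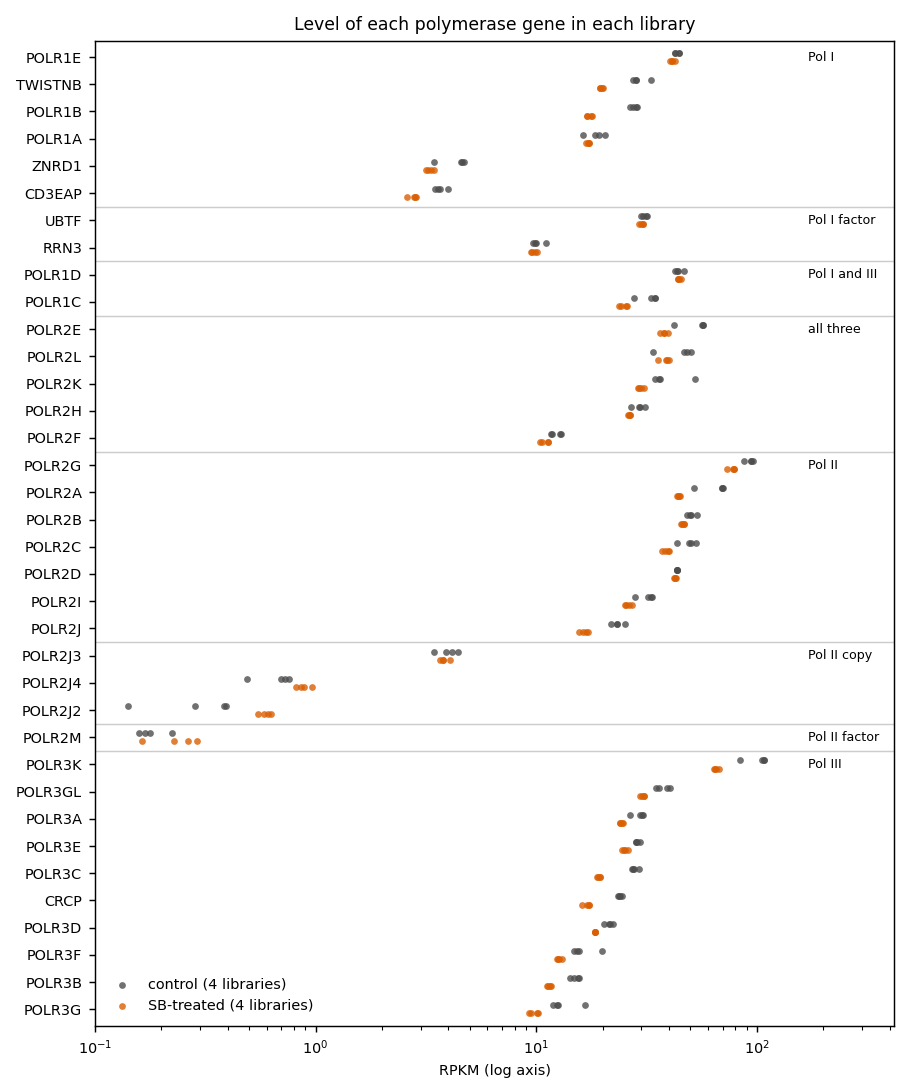
RPKM on a log axis for 36 of the 37 genes (rows, grouped by enzyme) in the 4 control libraries (grey) and the 4 SB-treated libraries (orange). SB-treated points lie to the left of all control points for 26 genes and to the right of all of them for 2, POLR2J2 and POLR2J4.

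After SB, 25 of the 37 genes were lower, 2 were higher and 10 did not pass the test (limma on log2(RPKM + 1), adjusted p below 0.05 over all 14526 genes). Over all genes, 65.6% passed, 32.6% as lower and 33.0% as higher, so a change in itself was common, while 67.6% of the members were lower. All 25 genes that fell were subunits, and 25 of the 31 subunits fell with none rising, while none of the 6 other genes fell and 2 rose. These 6 genes had a median of 2.32 RPKM in control cells, against 29.1 RPKM for the subunits. The 2 that rose, POLR2J2 and POLR2J4, were below 1 RPKM in control cells. The median log2 fold change was -0.30 over the subunits and -0.26 over the 37 genes, against 0.0045 over all genes. SB-treated libraries lay below all controls for 26 members, where 30.5% of all genes did so, and above all controls for 2, where 31.0% did so. Without control replicate 1, 27 members were lower and 2 higher. Over all genes in that fit, 37.9% were lower and 5459 of the 14526 were higher. In RNA from whole cultures, fewer cells of a type and less RNA per cell cannot be told apart. The replicates are called biological in the study's methods, and neither the methods nor the labels name separate cultures, so the p-values measure the spread between these samples, which may be technical.

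By enzyme, the share that fell was largest for Pol III, with 10 of 11 specific subunits and a median log2 fold change of -0.35. Of the 7 Pol II-specific subunits, 6 fell (median -0.27), and of the 6 Pol I-specific subunits, 4 fell (median -0.31). Of the 7 shared subunits, 5 fell (median -0.20). Without control replicate 1, 10 Pol III-specific, 6 Pol II-specific, 5 Pol I-specific and 6 shared subunits fell. The medians were then -0.30, -0.33, -0.35 and -0.25, so Pol III no longer had the lowest median. Whether these shares differ between the enzymes was not tested.

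Some falls were smaller by over 1.5 times under another setting but kept their call under that setting. With the GC and length correction the log2 fold change was -0.15 for ZNRD1, -0.22 for POLR1C, -0.07 for POLR2B, -0.21 for POLR2C, -0.18 for POLR2I, -0.18 for POLR3F and -0.13 for POLR3GL. Without TMM scaling it was -0.16 for POLR2G, -0.17 for POLR2I, -0.15 for POLR3A, -0.20 for POLR3GL, -0.10 for POLR3D and -0.08 for POLR3E.

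**Figure D3:**
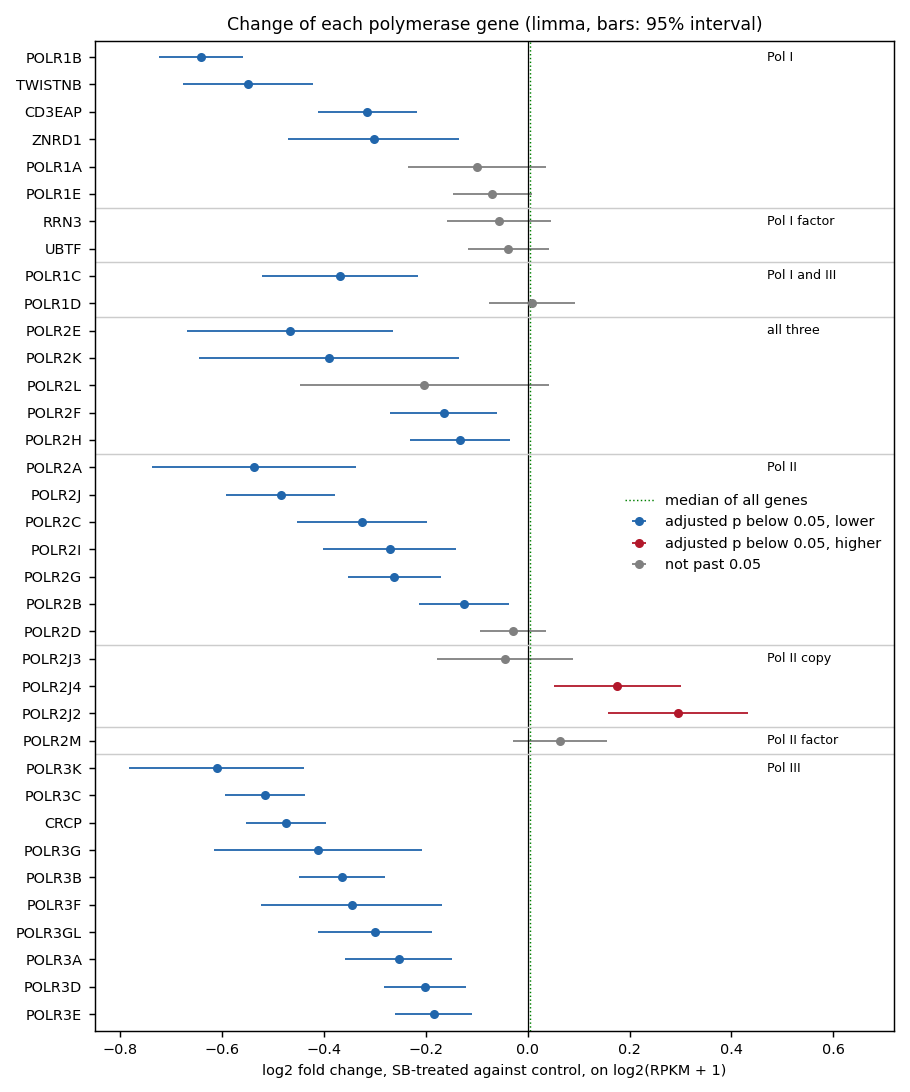
Log2 fold change of SB-treated against control cells on log2(RPKM + 1) for 36 of the 37 genes, with 95% intervals from limma. Blue points (25) are lower and red points (2) higher with an adjusted p below 0.05, grey points (9) did not pass, and the dotted line is the median of all genes.

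For Pol I, the mRNAs of the second-largest subunit and of the stalk fell, while the mRNA of its largest subunit did not pass the test. POLR1B, the second-largest subunit, was at 28.3, 27.5, 26.5 and 28.5 RPKM in the controls and 17.7, 17.1, 16.9 and 17.9 RPKM in SB-treated cells. The groups were apart by more than the whole spread of either, and POLR1B fell by 37.2%, the largest fall among the 37 genes (log2 fold change -0.64, standard error 0.037, limma adjusted p = 9.49e-07). Without control replicate 1 the fall of POLR3K, at 38.7%, was larger. POLR1A, the largest subunit, which holds the catalytic centre, was at 16.2, 19.2, 18.5 and 20.4 RPKM in the controls and 17.4, 17.2, 17.4 and 16.8 RPKM in SB-treated cells. Control replicate 1 was the lowest of the 8 values and the only control below the treated libraries, and the log2 fold change was -0.10 with a 95% interval from -0.24 to 0.04 (limma adjusted p = 0.171). Without that library it was -0.16 (limma adjusted p = 0.0022), and with values corrected for GC content and transcript length it was -0.30 (limma adjusted p = 1.59e-05).

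TWISTNB (now POLR1F), the stalk subunit that meets initiation factors and whose promoter window held none of the motifs, was at 33.3, 28.4, 27.5 and 28.2 RPKM in the controls and 19.8, 19.5, 19.4 and 20.1 RPKM in SB-treated cells. Every treated library was below every control, a fall of 32.9% (log2 fold change -0.55, standard error 0.057, limma adjusted p = 2.48e-05). CD3EAP (now POLR1G), a subunit of the Pol I-specific dimer, was at 3.65, 3.59, 3.49 and 4.00 RPKM in the controls and 2.82, 2.84, 2.80 and 2.59 RPKM in SB-treated cells. It fell by 25.0% (log2 fold change -0.31, standard error 0.043, limma adjusted p = 1.56e-04) at 357 to 538 reads per library, and 49.8% of its exon bases lie opposite exons of ERCC1, whose log2 fold change was -0.01 (limma adjusted p = 0.843). Since the strand setting of the counting is not given, reads of such facing genes cannot be told apart. ZNRD1 (now POLR1H), which stimulates RNA cleavage, fell from 4.33 ± 0.593 to 3.30 ± 0.115 RPKM (SD, n = 4 each) (log2 fold change -0.30, limma adjusted p = 0.0055). POLR1E, the dimer partner of CD3EAP, did not pass at -0.07, with a 95% interval from -0.15 to 0.01.

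Neither RRN3 nor UBTF, the Pol I factors among the genes chosen here, passed the test. They are not the only Pol I initiation factors: most of the promoter factors in the lists below fell, and TAF1C rose. RRN3, which makes Pol I competent to initiate and is a known endpoint of growth signalling, was at 11.1, 9.71, 10.0 and 9.84 RPKM in the controls and 9.88, 9.46, 9.53 and 10.1 RPKM in SB-treated cells. UBTF, the HMG-box protein that coats ribosomal DNA, was at 31.5, 30.3, 31.8 and 29.8 RPKM in the controls and 29.2, 30.6, 30.4 and 29.9 RPKM in SB-treated cells. Both overlapped between groups, with log2 fold changes of -0.06 (95% interval -0.16 to 0.05) for RRN3 and -0.04 (95% interval -0.12 to 0.04) for UBTF. With the GC and length correction UBTF was at -0.15 and passed as lower (limma adjusted p = 0.0173), while without TMM scaling it was at 0.06 and did not pass.

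Among the subunits that the enzymes have in common, POLR2E, POLR2K and POLR1C fell most with all libraries. Without control replicate 1, POLR2L (20.7%) fell by more than POLR2K. POLR2E (RPB5), part of the jaw that grips downstream DNA, was at 42.2, 56.9, 56.6 and 57.2 RPKM in the controls and 36.5, 39.5, 37.8 and 38.1 RPKM in SB-treated cells. Control replicate 1 lay between the treated libraries and the other controls, and the fall was 28.7% with it and 33.3% without it (log2 fold change -0.47, standard error 0.091, limma adjusted p = 0.00135). POLR2K (RPB12), a small zinc-binding subunit, was at 52.5, 35.9, 34.5 and 36.5 RPKM in the controls and 30.9, 28.8, 29.8 and 29.4 RPKM in SB-treated cells. Here control replicate 1 was the highest, and the fall was 25.4% with it and 16.6% without it (log2 fold change -0.39, standard error 0.11, limma adjusted p = 0.0128). With the GC and length correction the POLR2K value was -0.13 and did not pass (limma adjusted p = 0.0891).

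POLR1C, the larger partner of the assembly dimer of Pol I and Pol III, was at 27.6, 34.6, 34.4 and 33.0 RPKM in the controls and 25.4, 24.2, 25.8 and 23.8 RPKM in SB-treated cells, a fall of 23.5% without overlap (log2 fold change -0.37, standard error 0.069, limma adjusted p = 0.00105). Its dimer partner POLR1D did not pass, at 44.2 ± 1.89 RPKM (SD, n = 4) in control and 44.4 ± 0.563 RPKM (SD, n = 4) in SB-treated cells (log2 fold change 0.01, 95% interval -0.08 to 0.09). With the GC and length correction, POLR1D was at 0.22 and passed as higher. POLR2F (RPB6) fell by 11.7% and POLR2H (RPB8) by 9.26%, with limma adjusted p-values of 0.0114 and 0.0222. Without TMM scaling neither passed, at -0.07 and -0.03, and POLR2H also did not pass without control replicate 2 or 3 or SB-treated replicate 2 or 3 (limma adjusted p = 0.0501 to 0.0633). POLR2L (RPB10) was at 44.7 ± 7.40 RPKM (SD, n = 4) in control and 38.3 ± 1.98 RPKM (SD, n = 4) in SB-treated cells and did not pass (log2 fold change -0.20, 95% interval -0.45 to 0.04). Without control replicate 1, POLR2L was lower at -0.33 (limma adjusted p = 1.02e-04). Exons of CD151, with a log2 fold change of 0.18, face 22.8% of the POLR2L exon bases.

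The subunits of Pol II fell in 6 of 7 cases, led by the largest subunit. POLR2A (RPB1), which carries the heptad-repeat C-terminal domain, was at 51.6, 69.2, 69.4 and 70.2 RPKM in the controls and 43.8, 45.0, 44.6 and 43.4 RPKM in SB-treated cells. Controls 2 to 4 lay close together and control replicate 1 lay between them and the treated libraries. POLR2A fell by 32.1% with that library and by 36.5% without it (log2 fold change -0.54, standard error 0.089, limma adjusted p = 5.14e-04). POLR2B (RPB2), its catalytic partner, was at 53.5, 48.1, 49.8 and 50.4 RPKM in the controls and 46.9, 45.1, 45.7 and 46.8 RPKM in SB-treated cells. The groups did not overlap, but the fall of 8.55% was small (log2 fold change -0.13, standard error 0.039, limma adjusted p = 0.0178). POLR2B did not pass without TMM scaling, at -0.02, or without SB-treated replicate 2, at -0.12 (limma adjusted p = 0.0534). With the GC and length correction it passed at -0.07 (limma adjusted p = 0.0291), but not with a block for the replicate number added (limma adjusted p = 0.0533).

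POLR2J (RPB11) and POLR2C (RPB3) form the assembly dimer of Pol II, and both fell. POLR2J was at 21.9, 23.3, 25.1 and 23.3 RPKM in the controls and 16.2, 17.2, 15.6 and 16.7 RPKM in SB-treated cells (fall of 29.8%, log2 fold change -0.48, standard error 0.048, limma adjusted p = 1.83e-05). POLR2C was at 43.6, 50.3, 49.2 and 52.8 RPKM in the controls and 39.8, 37.3, 38.3 and 39.8 RPKM in SB-treated cells (fall of 20.8%, log2 fold change -0.33, standard error 0.057, limma adjusted p = 7.08e-04). No treated library reached the lowest control for either gene. POLR2I (RPB9), which aids transcript cleavage, fell by 17.9%, and POLR2G (RPB7) fell by 16.8%, with limma adjusted p-values of 0.0024 and 3.48e-04. The exons of POLR2I overlap those of TBCB on the opposite strand over 19.1% of its exon bases, and TBCB had a log2 fold change of -0.34. With the GC and length correction POLR2G was at -0.08 and did not pass (limma adjusted p = 0.0538).

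POLR2D (RPB4), the stalk partner of POLR2G, was the Pol II subunit that did not pass. It was at 43.3, 43.5, 43.4 and 43.5 RPKM in the controls and 42.6, 43.0, 42.0 and 42.5 RPKM in SB-treated cells. Its treated libraries lay just below its controls, with a log2 fold change of -0.03 (95% interval -0.09 to 0.04). Without TMM scaling it was at 0.07 and passed as higher (limma adjusted p = 0.0465), and with the GC and length correction it was at -0.07 and passed as lower (limma adjusted p = 0.0371), so its direction depends on the processing.

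None of the 3 copies of POLR2J fell by the test. POLR2J2, a near-identical copy, was at 0.142, 0.384, 0.394 and 0.283 RPKM in the controls and 0.550, 0.582, 0.607 and 0.627 RPKM in SB-treated cells, or 12 to 58 reads per library. All treated libraries were above all controls (log2 fold change 0.30, standard error 0.061, limma adjusted p = 0.00203), a rise of 96.7% with control replicate 1 and 67.2% without it. At this low level the log2 fold change was 0.84 with a pseudocount of 0.1 and 1.08 with voom on the recovered reads. POLR2J4, a pseudogene copy, was at 0.487, 0.730, 0.761 and 0.695 RPKM in the controls and 0.819, 0.962, 0.882 and 0.862 RPKM in SB-treated cells. It was also higher without overlap (log2 fold change 0.18, standard error 0.055, limma adjusted p = 0.0185), but with the GC and length correction it was at 0.03 and did not pass, nor did it without SB-treated replicate 2, at 0.16 (limma adjusted p = 0.0558). Its log2 fold change was 0.37 with a pseudocount of 0.1 and 0.43 with voom. Exons of UBE2D4, with a log2 fold change of 0.24, face 11.2% of the POLR2J4 exon bases. POLR2J3 did not pass, at 3.98 ± 0.408 RPKM (SD, n = 4) in control and 3.82 ± 0.177 RPKM (SD, n = 4) in SB-treated cells (log2 fold change -0.04, 95% interval -0.18 to 0.09). Reads of these near-identical genes may be split between them by the counting, so their levels are uncertain.

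POLR2M, which encodes the Pol II-bound protein GDOWN1 and overlaps exons of GCOM1 on its own strand, had 26 to 58 reads per library. It was at 0.182 ± 0.0286 RPKM (SD, n = 4) in control and 0.236 ± 0.0548 RPKM (SD, n = 4) in SB-treated cells and did not pass (log2 fold change 0.06, 95% interval -0.03 to 0.15). With the GC and length correction and a block for the replicate number, POLR2M was at 0.11 and passed as higher (limma adjusted p = 0.0109).

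Pol III subunits that fell ranged from the catalytic pair to the initiation trimer and the small subunits. POLR3K (RPC10), needed for RNA cleavage and termination, was at 83.5, 106, 108 and 107 RPKM in the controls and 64.3, 67.7, 64.4 and 65.5 RPKM in SB-treated cells. It fell by 35.2% with control replicate 1, the lowest control, and by 38.7% without it (log2 fold change -0.61, standard error 0.077, limma adjusted p = 8.69e-05). POLR3C (RPC3), of the trimer that opens the promoter, was at 29.3, 27.6, 27.7 and 27.2 RPKM in the controls and 19.6, 18.9, 19.1 and 19.4 RPKM in SB-treated cells and fell by 31.1% (log2 fold change -0.52, standard error 0.035, limma adjusted p = 2.15e-06). CRCP (RPC9), a stalk subunit, was at 24.0, 23.8, 24.5 and 23.6 RPKM in the controls and 17.0, 17.4, 16.1 and 17.3 RPKM in SB-treated cells and fell by 29.2% (log2 fold change -0.47, standard error 0.035, limma adjusted p = 3.59e-06). For CRCP the controls spread over less than 1 RPKM and the treated libraries lay well below them. In the annotation used here for positions, 10.1% of the CRCP exon bases are shared with a protein-coding gene on the same strand that has no row.

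Both members of the catalytic pair of Pol III fell. POLR3A (RPC1), the largest subunit, was at 26.5, 30.2, 29.4 and 30.4 RPKM in the controls and 23.9, 24.7, 23.9 and 24.6 RPKM in SB-treated cells (fall of 16.8%, log2 fold change -0.25, standard error 0.047, limma adjusted p = 0.00101). POLR3B (RPC2), the second-largest, was at 15.6, 14.8, 14.2 and 15.5 RPKM in the controls and 11.4, 11.5, 11.2 and 11.7 RPKM in SB-treated cells (fall of 23.9%, log2 fold change -0.36, standard error 0.038, limma adjusted p = 2.49e-05). Neither gene had a treated library within the range of its controls.

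POLR3G and POLR3GL are alternative forms of the same trimer subunit (RPC7), the former known for its high level in stem and tumour cells. POLR3G was at 16.7, 12.0, 12.4 and 12.6 RPKM in the controls and 10.1, 9.29, 9.42 and 10.2 RPKM in SB-treated cells. Control replicate 1 was the highest, and the fall was 27.3% with it and 20.8% without it (log2 fold change -0.41, standard error 0.091, limma adjusted p = 0.00285). POLR3GL was at 40.6, 35.8, 39.1 and 35.0 RPKM in the controls and 31.0, 29.4, 30.7 and 30.2 RPKM in SB-treated cells, a fall of 19.4% without overlap (log2 fold change -0.30, standard error 0.050, limma adjusted p = 5.41e-04). In the annotation used here for positions, 21.1% of its exon bases are shared with a protein-coding gene on the same strand that has no row.

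Of the remaining Pol III subunits, POLR3F (RPC6), the trimer subunit that meets the initiation factor, fell by 23.1% (17.3% without control replicate 1). The dimer of POLR3D (RPC4) and POLR3E (RPC5) fell by 13.7% and 12.4%, with limma adjusted p-values of 7.59e-04 and 9.53e-04.

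Ratios within a library do not depend on how the libraries were scaled, and 4 pairs were compared by a two-sided exact permutation test over the libraries, which cannot give a p below 0.0286 with groups of 4. The log2 ratio of POLR1A to POLR1B was -0.80, -0.52, -0.52 and -0.48 in the controls and -0.02, 0.01, 0.04 and -0.09 in SB-treated cells. The group means correspond to linear ratios of 0.669 and 0.991, without overlap, and the difference of 0.57 (0.49 without control replicate 1) had an exact p of 0.0286, adjusted over the 4 pairs to 0.0571. The log2 ratio of POLR2A to POLR2B was -0.05, 0.52, 0.48 and 0.48 in the controls and -0.10, -0.0039, -0.04 and -0.11 in SB-treated cells. Controls 2 to 4 lay between 0.48 and 0.52 while control replicate 1 fell within the treated range, so the difference of -0.42 had an exact p of 0.0857 (adjusted 0.114) and was -0.56 without that library.

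The ratio of POLR3A to POLR3B was 0.76, 1.02, 1.05 and 0.98 in the controls and 1.07, 1.10, 1.09 and 1.08 in SB-treated cells, a difference of 0.13 (exact p = 0.0286, adjusted 0.0571) that came to 0.07 without control replicate 1. For POLR3G to POLR3GL it was -1.28, -1.58, -1.66 and -1.48 in the controls and -1.62, -1.66, -1.71 and -1.57 in SB-treated cells, a difference of -0.14 (exact p = 0.171) with overlapping groups. None of the 4 ratios passed 0.05 after adjustment. The ratios of POLR1A to POLR1B and of POLR3A to POLR3B were already at the lowest p this test can give. Their adjusted value of 0.0571 does not depend on the size of the difference and is not read as no change.

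**Figure D4:**
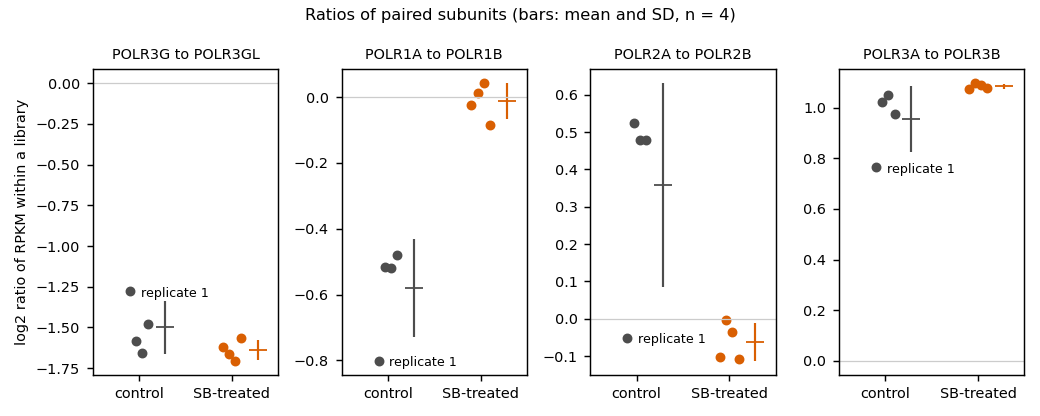
Log2 ratio of the RPKM values of 4 pairs of subunits within each library, with control libraries in grey, SB-treated libraries in orange, and the mean and SD of 4 beside them. Control replicate 1 is marked in each panel. It is the lowest control for the ratios of POLR1A to POLR1B, POLR2A to POLR2B and POLR3A to POLR3B, and the highest for POLR3G to POLR3GL.

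The counts of the factor lists below are to be read against the 32.6% of all genes that were lower and the 33.0% that were higher. In the fit without control replicate 1, 37.9% of all genes were lower and 5459 of the 14526 were higher. The mRNAs of most proteins that assemble the enzymes fell. Of 11 assembly factors, 10 were lower and none higher, with a median log2 fold change of -0.35. GPN3, a GTPase needed for nuclear import of Pol II, fell most among them, from 31.4 ± 2.83 to 20.5 ± 0.534 RPKM (SD, n = 4 each) (log2 fold change -0.59, standard error 0.058, limma adjusted p = 1.84e-05). RUVBL1 and PFDN2, of the chaperone complex that builds polymerases and other machines, had log2 fold changes of -0.55 and -0.54. RPAP1 did not pass, at 0.01 (limma adjusted p = 0.962), and all 11 were lower without control replicate 1.

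The factors that bring the polymerases to promoters were mixed. Of 6 Pol I promoter and termination factors, 4 fell and 1 rose (median -0.28). TAF1D, a subunit of the promoter selectivity factor, fell from 53.8 ± 8.28 to 31.6 ± 2.17 RPKM (SD, n = 4 each) (log2 fold change -0.74, standard error 0.094, limma adjusted p = 9.60e-05), while TAF1C of the same complex rose (log2 fold change 0.31, standard error 0.079, limma adjusted p = 0.00666). Of 30 general transcription factors of Pol II, 29 have a row, of which 15 fell and 4 rose (median -0.17), or 16 and 4 without control replicate 1. CCNH, the cyclin of the TFIIH kinase, fell from 34.3 ± 2.11 to 19.2 ± 0.970 RPKM (SD, n = 4 each) (log2 fold change -0.80, standard error 0.052, limma adjusted p = 1.70e-06), and the helicase ERCC2 of the same complex rose (log2 fold change 0.26, standard error 0.055, limma adjusted p = 0.00249).

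Of 22 Pol II pausing and elongation factors, 12 fell and 1 rose (median -0.15), or 12 and 2 without control replicate 1, when PAF1 also passed as higher. The largest fall was in WDR61, of the PAF1 complex (log2 fold change -0.57, standard error 0.033, limma adjusted p = 9.49e-07). The rise with all libraries was in HEXIM1, the inhibitor of the pause-release kinase, from 5.05 ± 0.172 to 7.98 ± 0.175 RPKM (SD, n = 4 each) (log2 fold change 0.57, standard error 0.035, limma adjusted p = 1.22e-06). Of the 16 genes on the list of Pol III transcription factors and their repressor MAF1, 6 fell and 1 rose (median -0.08), a count of falls near that over all genes, or 8 and 2 without control replicate 1. The largest fall was in GTF3C6, of the factor that binds promoters inside tRNA genes (log2 fold change -0.47, standard error 0.044, limma adjusted p = 1.29e-05), and the rise was in BRF1, of the factor that recruits Pol III to those promoters (log2 fold change 0.32, standard error 0.059, limma adjusted p = 0.00108). MAF1 itself did not pass (log2 fold change -0.08, limma adjusted p = 0.0913) but was lower without control replicate 1 (limma adjusted p = 0.0459). POLRMT, the mitochondrial RNA polymerase, was at -0.14 and did not pass (limma adjusted p = 0.176), but it passed as lower without control replicate 1.

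**Figure D5:**
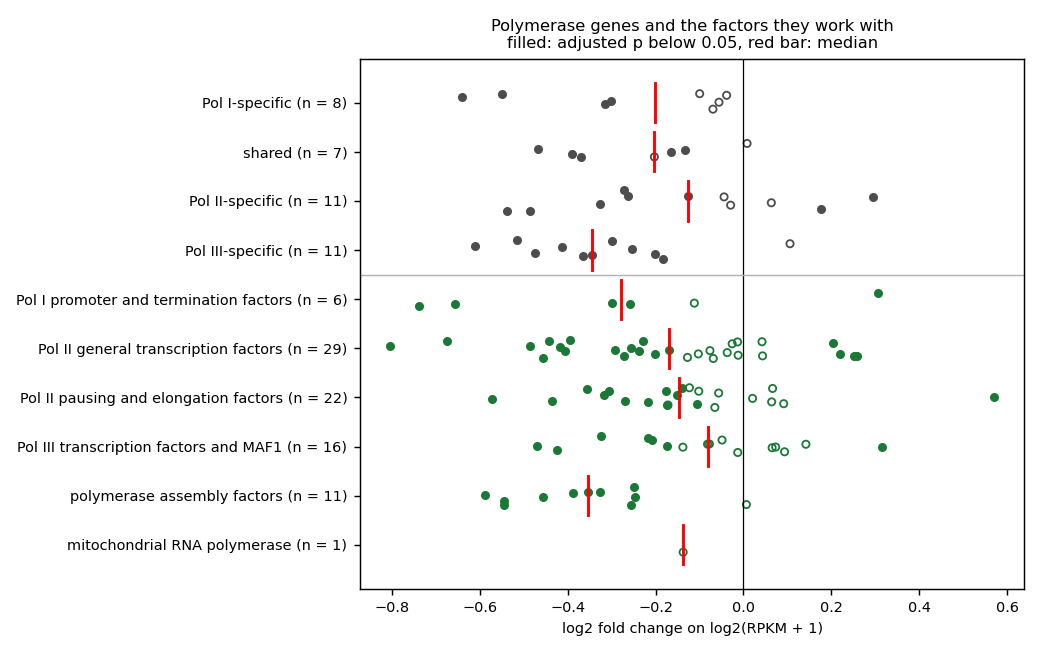
Log2 fold change of each gene on log2(RPKM + 1), for the 37 polymerase genes by enzyme (above the line, grey) and for the factor lists (below it, green). Here the 8 Pol I-specific genes include RRN3 and UBTF (median -0.20). The 11 Pol II-specific genes include the copies of POLR2J and POLR2M (median -0.13), so these medians differ from those of the subunits alone. Filled points have an adjusted p below 0.05, open points do not, and red bars are medians, which run from -0.35 for Pol III-specific genes and assembly factors to -0.08 for Pol III transcription factors and MAF1.

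The genes are spread over many chromosomes (GENCODE release 44 on GRCh38), with a few exceptions. POLR2J (chr7:102473128-102478922), POLR2J3 (chr7:102537918-102572653) and POLR2J2 (chr7:102665368-102671663) lie close together on the minus strand, and POLR3C (chr1:145824053-145844402) and POLR3GL (chr1:145964690-145978848) lie near each other on the plus strand. For 13 members a protein-coding neighbour on the opposite strand starts within 1000 bases. Of the 10 of these members that fell, 3 have a neighbour that fell, 5 a neighbour that rose and 2 a neighbour that did not pass. Without control replicate 1, POLR1A and POLR2L fell as well. Their neighbours PTCD3 and TSPAN4 were lower with all libraries, at log2 fold changes of -0.27 and -0.33. Over all genes, 32.6% were lower and 33.0% higher, so these few counts are not read as a trait of the members. POLR2A (chr17:7484366-7514616), for which the log2 fold change was -0.54, starts 103 bases from ZBTB4, which went from 5.47 to 7.97 RPKM (log2 fold change 0.47, limma adjusted p = 8.33e-06). CD3EAP (chr19:45406644-45410737) likewise faces PPP1R13L, at 0.31 (limma adjusted p = 0.00191). POLR3C and its neighbour RNF115 were both lower, at -0.52 and -0.31, and SNRNP25, which faces POLR3K, did not pass, at -0.14 (limma adjusted p = 0.133).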

How the data were processed

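RNA-seq of 4 control and 4 SB-treated HepG2 samples was analysed from the deposited table. Per the study's methods and processing notes, the authors made stranded total RNA libraries, mapped the reads to hg38 with TopHat2 2.1.0, counted them per gene with featureCounts 1.5.0, left out genes not above 1 CPM in 2 or more samples, and scaled library sizes by the TMM method with edgeR 3.16.5. The strand setting of the counting is not given in the sources used here. The authors deposited RPKM values per gene and library. Their own fold changes, mean log2 CPM, p-values and FDR, which the table also holds, were not used. Of the columns with per-sample values, 0 were unused.

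Groups and replicate numbers came from the sample titles. RPKM were whole reads in units of 1 step per gene and library for 100% of the genes (tolerance 0.01 reads), which gave the reads per library, apart from a factor common to a gene in all libraries. TMM factors were 0.956 to 0.968 in control and 1.03 to 1.04 in SB-treated libraries. Groups were compared with limma 3.58.1 (R 4.3.3), fitted to log2(RPKM + 1), two-sided, with Benjamini-Hochberg adjustment over 14526 genes, a threshold of 0.05 and no further filter. The pseudocount of 1 shrinks the fold change where RPKM are low. The fit and the recovery of reads were tested on simulated data.

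The members and the gene lists were chosen with earlier results of these data known. Named in full were the catalytic pairs, POLR3G and POLR3GL, RRN3 and UBTF, and the 3 largest rises and falls past the threshold in each class, and from each factor list the largest rise and fall. Of the 37 members, 1 is in counts and medians only and its own values are not reported here. Other members have means, fold changes or places in counts, and overlapping neighbours and some list members were named after their values were seen. Alternatives were a pseudocount of 0.1, a mean RPKM of at least 1, no TMM factors, median-ratio scaling, voom on the recovered reads, a block for the replicate number, and fits without each library in turn. A correction for GC content and transcript length, with and without the block, was chosen after seeing the data. Positions and overlaps are from GENCODE release 44, while the authors counted on a UCSC annotation.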

Additional observations from a re-analysis of the deposited data

Results flagged for a closer look

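In 80 groups of 4 values (members and ratios, control and SB-treated), 9 had a highest or lowest library far from the others, with a gap to the nearest library that was a larger share of the whole range than Dixon's 95% limit, where chance gives about 4. In 8 of the 9 that library was control replicate 1. It was the lowest control by this share of the range for POLR2E (0.966), POLR2A (0.955), POLR3K (0.923) and ZNRD1 (0.896), and the highest for POLR2K (0.869) and POLR3G (0.856). Among the ratios it was the lowest for POLR2A to POLR2B (0.92) and for POLR1A to POLR1B (0.877). The remaining case was CD3EAP, for which SB-treated replicate 4 was the lowest (0.842). The report gives the values without control replicate 1 for these genes except ZNRD1, whose log2 fold change was -0.39 without it.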

How the results depend on the processing

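Over 16 alternatives, between 22 and 27 members were lower, and 20 of the 25 were lower in every one (21 when the fit without TMM factors is set aside). The share of all genes that were lower ran from 23.1% (without TMM factors) to 37.9% (without control replicate 1). Of 573 values of 36 members, 531 kept their direction and side of the threshold, 12 passed only under the alternative, 16 no longer passed and 14 changed sign. The number of members that were higher, 2 of 37, was 0 with a mean RPKM of at least 1 (which leaves out the 3 genes below it). It was 4 without TMM factors, 3 with the GC and length correction and the replicate block, and 1 to 2 when a library was left out. Over all genes, 3980 of 12545 were higher with the RPKM filter, 6253 of 14526 without TMM factors and 4908 of 14086 with that correction and block. Of the 11 Pol II-specific members, which here include the copies of POLR2J and POLR2M, 2 were higher in the main fit. The number was 0 with the RPKM filter, 3 without TMM factors, 1 with the GC and length correction and 1 to 2 when a library was left out. Of the shared members, 1 was higher without TMM factors, with the GC and length correction and with that correction and the replicate block, and 3 were lower without TMM factors.

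Without TMM factors 34.9% of all called genes were lower, against 49.8% with them, and the median of all genes moved to 0.08 (log2), while 84.6% of called members were lower, against 92.6%. The log2 fold change then changed sign for POLR1E (0.033), RRN3 (0.040), UBTF (0.064), POLR2D (0.074) and POLR2J3 (0.039). With the GC and length correction, with or without the replicate block, the median over the members was -0.18, and the sign changed for POLR1E (0.043), RRN3 (0.0012) and POLR2J3 (0.075), while 23 of the 25 members stayed lower (22 with the block). POLR1D, at 0.01, ranged from -0.0071 to 0.037 as single libraries were left out, and was -0.00022 and -0.0017 in the other fits where its sign changed. The cause was not tested for any of these.

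Same-numbered replicates deviated together by a correlation of 0.38, 0.327, 0.173 and -0.16 for numbers 1 to 4. Since the value for number 4 was not above 0.1 and no label says that a number marks a shared culture or day, the numbers were not taken to pair the samples, although each library correlated best with its own number for numbers 1 and 2, a hint from the data. With the replicate block, 26 members were lower and 2 higher, POLR2L having passed (limma adjusted p = 0.0338), and 4 Pol I-specific, 6 Pol II-specific, 10 Pol III-specific and 6 shared members were lower. Over all genes in that fit, 33.7% were lower and 4885 of the 14526 were higher. Depth limits most what can be said of POLR2J2 and POLR2M, at no more than 58 reads per library.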
